A study of Mus musculus with 12 samples.

Results

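Cytotoxic T lymphocytes (CTL) that had lost the transcription factor FOXO1 were compared with control CTL that had received vehicle and no inhibitor. The 3 FOXO1-GFP KO and 3 WT vehicle libraries were 6 of the 12 libraries of the series, taken by their labels, and all 13283 genes of the table were tested. The other 6 libraries had been exposed to the PI3K p110δ inhibitor IC87114 (PI3Kdi) and serve here for the spread between libraries and for values set side by side.

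CD8+ T cells came from lymph nodes or spleens of female, age-matched mice, and the tissue used for each replicate is not given in the sources used here. The KO cells carried FOXO1-GFP fl/fl alleles and GzmB cre, and the WT cells carried GzmB cre alone, so Cre recombinase driven by the granzyme B promoter was common to both groups. Cells were activated for 48 h through CD3 and CD28, in medium that held 20 ng/mL of IL-2 and 2 ng/mL of IL-12, kept in culture, and plated on day 6 for 24 h with the vehicle DMSO. WT cells were sorted as DAPI- CD8+, whereas KO cells were also sorted for loss of GFP, the reporter that marks the intact floxed allele. The genotype and this additional gate therefore cannot be told apart.

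FOXO1 is a forkhead transcription factor that keeps naive T cells quiescent and maintains mRNA for lymph node homing and memory, such as Klf2, S1pr1, Il7r and Tcf7. In effector CTL the kinase AKT, downstream of PI3K p110δ, phosphorylates FOXO1 and holds most of it in the cytosol. The comparison without inhibitor asks which mRNA nevertheless differ when the gene is lost. Since these are bulk samples, fewer cells that make an mRNA and less mRNA per cell cannot be told apart.

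Foxo1 mRNA (chromosome 3, 52268336 to 52353221, plus strand, GRCm38) was the first value examined, because it checks the labels. WT replicates 1, 2 and 3 held 9.99, 5.77 and 5.79 FPKM of it (fragments per kilobase of exon, scaled to library size), and KO replicates 0.58, 1.08 and 1.44 FPKM. Every KO library was below every WT library, the log2 fold change was -2.71 ± 0.35 (SE), and the adjusted p was 0.0898 in the 6-library fit and 0.00454 in the 12-library fit with the replicate block. The gene-level value also counts reads from exons outside the deleted part. Of the related factors, Foxo3 overlapped between groups (log2 fold change -0.07, 95% interval -0.55 to 0.42). Foxo4 was 4.19, 3.39 and 3.23 FPKM in WT and 3.05, 3.14 and 3.19 FPKM in KO CTL, below WT in every KO library by a margin smaller than the spread (-0.19, interval -0.55 to 0.17).

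mRNA were called different at an adjusted p under 0.05 and a fold change over 1.5, on the log2(FPKM + 0.1) scale. The limma fit of the 6 vehicle libraries alone called 0 mRNA (0% of genes in each direction), with a smallest adjusted p of 0.0898. In that fit 786 mRNA (5.92%) had an unadjusted p under 0.05, 207 higher (1.56%) and 579 lower (4.36%) in KO CTL. The same contrast with the spread taken from all 12 libraries, with vehicle and PI3Kdi libraries of the same genotype and number as a block, called 31 mRNA: 5 higher (0.0376% of genes) and 26 lower (0.196%). Without that block the 12-library fit called 44, of which 9 were higher (0.0678%) and 35 lower (0.263%), and 27 mRNA were called in both, so that 4 of the 31 (P4ha1, Pfkl, Cxcr6 and Rgs11) were called only with the block. A block on the number shared by both genotypes called 24, 2 higher (0.0151%) and 22 lower (0.166%). Below, "rose" and "fell" are used for calls of the fit with the block, and its adjusted p is the one printed unless another fit is named.

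Separation of the libraries gives a description that needs no fit. Every KO library was above every WT library for 470 mRNA (3.54%) and below for 902 (6.79%). All 31 called mRNA were separated in this way. Along the first principal component, which held 56.9% of the variance of the 6 libraries over 10376 genes of at least 1 FPKM, WT replicate 1 (-34.4) and KO replicate 3 (30.8) lay at opposite ends and only 4.83% of the spread lay between genotypes, whereas 80.1% of the spread of the second component (18.9% of the variance) did. The CD8 T cell markers did not separate the groups: 0 of 9, Cd8a, Cd8b1 and Cd3e among them, did so, and their median log2 fold change was -0.00 against -0.01 for all genes.

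**Figure D1:**
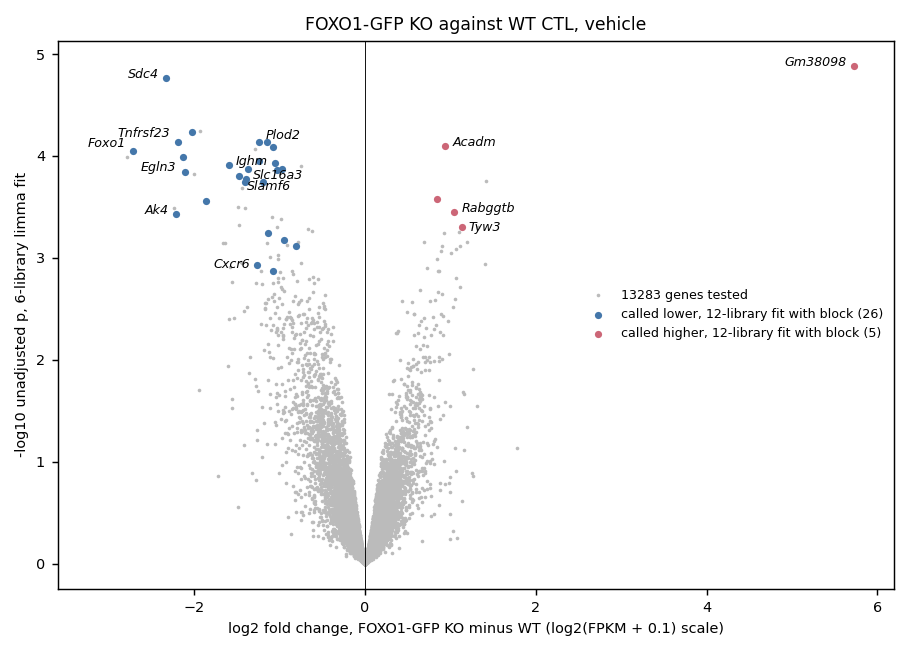
Log2 fold change of FOXO1-GFP KO against WT CTL (horizontal) and -log10 of the unadjusted p of the 6-library limma fit (vertical) for 13283 genes; coloured points are the 26 mRNA called lower and 5 called higher in the 12-library fit with the replicate block. Called mRNA lie mostly on the lower side, with Foxo1 at -2.71 and Egln3 at -2.13, and the point at far right is Gm38098, whose WT libraries held at most 2 estimated reads.

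Hypoxia-inducible genes held 6 of the 26 mRNA that fell. These are genes that hypoxia-inducible factors (HIF) switch on when oxygen is short, and in T cells also under strong antigen receptor and cytokine signalling. They include enzymes of collagen modification, lactate export and mitochondrial turnover as well as the prolyl hydroxylases that mark HIF for destruction. Of 30 listed genes 28 were measured. Of the 28, 6 fell and 0 rose, against 0.196% and 0.0376% of all genes. Of the 28, 14 (50%, against 6.79% of all genes) were lower in every KO library than in any WT library. The median log2 fold change of the 28 was -0.52, against -0.01 for all genes.

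The promoters of the called members show what they share in sequence. The 5 called members with a matched promoter each held the core of the HIF response element, the letters ACGTG, on 1 of the strands within 250 bases before a gene start. They are printed 5′ to 3′ from RefSeq (GRCm38.p6) with that core in capitals. Where CACGTG stands, the core is read on both strands at overlapping positions.
Egln3 chr12:54203875-54204124 (minus strand): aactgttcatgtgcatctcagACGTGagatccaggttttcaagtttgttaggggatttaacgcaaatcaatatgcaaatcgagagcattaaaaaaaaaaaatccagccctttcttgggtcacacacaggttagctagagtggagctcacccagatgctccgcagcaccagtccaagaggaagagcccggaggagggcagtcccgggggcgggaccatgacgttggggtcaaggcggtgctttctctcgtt
Slc16a3 chr11:120948817-120949066 (plus strand): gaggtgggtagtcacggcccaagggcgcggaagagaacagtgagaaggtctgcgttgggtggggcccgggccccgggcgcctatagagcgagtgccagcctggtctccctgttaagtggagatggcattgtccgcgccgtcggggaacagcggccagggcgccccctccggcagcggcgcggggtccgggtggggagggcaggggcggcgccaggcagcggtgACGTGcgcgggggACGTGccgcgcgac
P4ha1 chr10:59323046-59323295 (plus strand): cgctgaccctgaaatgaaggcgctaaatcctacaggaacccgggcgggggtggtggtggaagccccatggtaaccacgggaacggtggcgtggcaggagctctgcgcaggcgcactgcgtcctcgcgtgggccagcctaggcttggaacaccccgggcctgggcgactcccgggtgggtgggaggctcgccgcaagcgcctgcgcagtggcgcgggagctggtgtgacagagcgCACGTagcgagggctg
Bnip3 chr7:138909507-138909756 (minus strand): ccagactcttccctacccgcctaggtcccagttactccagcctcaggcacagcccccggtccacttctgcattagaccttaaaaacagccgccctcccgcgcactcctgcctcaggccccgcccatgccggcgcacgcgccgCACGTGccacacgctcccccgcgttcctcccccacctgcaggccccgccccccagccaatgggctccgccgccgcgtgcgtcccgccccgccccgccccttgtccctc
Ak4 chr4:101419453-101419702 (plus strand): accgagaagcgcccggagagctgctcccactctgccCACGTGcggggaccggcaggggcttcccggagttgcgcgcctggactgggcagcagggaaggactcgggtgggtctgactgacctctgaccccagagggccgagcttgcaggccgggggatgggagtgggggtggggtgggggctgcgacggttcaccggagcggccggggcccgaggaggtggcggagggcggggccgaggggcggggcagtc

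Over the measured hypoxia-inducible genes with a RefSeq promoter, 16 of 24 (66.7%) held ACGTG or its complement CACGT before a start, against 2444 of 9622 genes of the table (25.4%). Among those 24 promoters, the genes with separated libraries held it in 8 of 11 cases (72.7%). Of the 4 promoters given for Ak4, only the one printed did. Of the 19 matched genes called lower, 7 (36.8%) held ACGTG or CACGT, the printed genes among them. The forkhead letters GTAAACA, searched on both strands, occurred in 1 of the 24 (4.17%), in 0 of the 19 matched genes called lower, and in 255 of 9622 (2.65%). At so low a share over all genes, 0 of 19 does not set the called genes apart. Matches are descriptions of these windows, which leave out distal elements.

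Egln3, which encodes a prolyl hydroxylase that acts on HIF, was 37.65, 45.47 and 23.74 FPKM in WT CTL and 10.01, 7.98 and 5.84 FPKM in KO CTL. It fell with a log2 fold change of -2.13 ± 0.28 (SE; adjusted p = 0.0102), and the lowest WT library was still above the highest KO library. Ak4, a mitochondrial adenylate kinase, fell from 3.65, 4.28 and 2.19 FPKM to 0.93, 0.68 and 0.37 FPKM, a log2 fold change of -2.21 ± 0.35 (SE; adjusted p = 0.0251).

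Plod2, a lysyl hydroxylase of collagen, was 17.87, 16.73 and 12.58 FPKM in WT and 6.14, 6.89 and 6.47 FPKM in KO CTL, and fell with a log2 fold change of -1.25 ± 0.16 (SE; adjusted p = 0.0042). P4ha1, a collagen prolyl hydroxylase subunit, fell by 1.08 on the log2 scale (adjusted p = 0.0407, and 0.0636 without the block), with 25.9 ± 5.46 FPKM in WT and 12.2 ± 2.5 FPKM in KO CTL (SD, n = 3). Its relative P4ha2 was 2.04, 2.05 and 1.03 FPKM in WT and 0.35, 0.34 and 0.31 FPKM in KO CTL, a log2 fold change of -2.0. P4ha2 was called without the block (adjusted p = 0.04) but not with it (adjusted p = 0.188).

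Slc16a3, the exporter of lactate, was 44.35, 53.51 and 37.68 FPKM in WT and 19.92, 18.72 and 13.07 FPKM in KO CTL. It fell with a log2 fold change of -1.39 ± 0.20 (SE; adjusted p = 0.0133). Bnip3, a mitochondrial receptor for mitophagy, fell by 0.97 on the log2 scale (adjusted p = 0.0324), with 129 ± 18 FPKM in WT and 65.6 ± 4.5 FPKM in KO CTL (SD, n = 3). Separated but not called were Pdk1 (-0.85), a kinase that restrains pyruvate dehydrogenase, Pfkfb4 (-0.80), Ndrg1 (-0.71), Stc2 (-0.70), Egln1 (-0.60), Bnip3l (-0.53) and Mxi1 (-0.47), all log2 fold changes.

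Hif1a mRNA itself was 76.68, 36.20 and 26.93 FPKM in WT and 37.97, 38.35 and 20.53 FPKM in KO CTL. The groups overlapped, and the 95% interval of the log2 difference was -1.40 to 0.52. Vegfa, a secreted HIF target, also overlapped (-0.34, interval -1.07 to 0.40). Within each genotype the list was not level: replicate 3 held the lowest WT value for 17 of the 28 genes and the lowest KO value for 20 of 28. The median of the 28 genes, relative to the WT mean, was 0.14, 0.12 and -0.25 (log2) in the WT libraries and -0.55, -0.47 and -0.87 in the KO libraries.

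**Figure D2:**
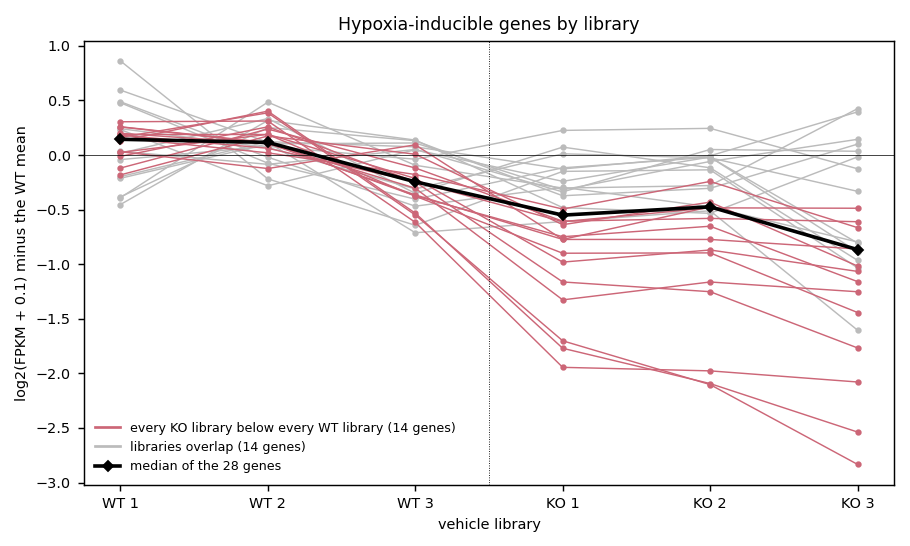
Log2(FPKM + 0.1) minus the WT mean (vertical) for 28 hypoxia-inducible genes in the 6 vehicle libraries (horizontal); each thin line joins the values of 1 gene, red for the 14 genes separated between groups, and the black diamonds are medians. The KO medians, -0.55, -0.47 and -0.87, all lie below the lowest WT median of -0.25.

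Glycolysis, the pathway from glucose to pyruvate, partly overlaps the HIF targets in its regulation. Of 21 listed genes 20 were measured, 1 fell (against 0.196% of all genes), 0 rose, 6 (30%, against 6.79%) were separated below WT, and the median log2 fold change was -0.23. Pfkl, the liver-type phosphofructokinase, was 27.95, 27.06 and 21.93 FPKM in WT and 14.66, 14.64 and 10.59 FPKM in KO CTL, and fell with a log2 fold change of -0.95 (adjusted p = 0.0352, and 0.0591 without the block). The glucose transporter Slc2a3 was separated as well (61.81, 50.80 and 25.84 against 23.45, 19.17 and 10.85 FPKM, log2 fold change -1.35, adjusted p = 0.2), as were Tpi1 (-0.57) and Pgam1 (-0.58). Slc2a1 (-0.38) and Ldha (-0.20) overlapped between groups.

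None of the measured mRNA of cholesterol synthesis was called with the block, and all 24 log2 fold changes were negative. These genes are driven by the sterol-sensing factor SREBP2 and supply membrane for dividing cells. Of 25 listed genes 24 were measured, 13 (54.2%, against 6.79% of all genes) were separated below WT, 11 overlapped, and the median log2 fold change was -0.48. Acat2, the cytosolic thiolase that starts the pathway, was 18.05, 18.36 and 19.36 FPKM in WT and 10.72, 11.69 and 10.51 FPKM in KO CTL. Its log2 fold change was -0.76 ± 0.10 (SE), called without the block (adjusted p = 0.0193) and just missed with it (adjusted p = 0.0507).

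Among the other members, Msmo1 (-0.78), Hmgcs1 (-0.72), Cyp51 (-0.60) and Fdft1 (-0.56) were separated, and Insig1 (-0.93) overlapped between groups. KO replicate 3 was the lowest KO library for 20 of the 24 genes and WT replicate 3 the lowest WT library for 15. KO replicate 3 was also the shallowest library, at an estimated 12.86 M reads, and the part of depth and of culture state in these values was not tested. Cell cycle mRNA did not show the pattern: 0 of 36 were called and their median was 0.00. Of these, 2 (5.56%, against 3.54% of all genes), Ccne1 (0.34) and Mcm3 (0.06), were separated, both above WT.

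**Figure D3:**
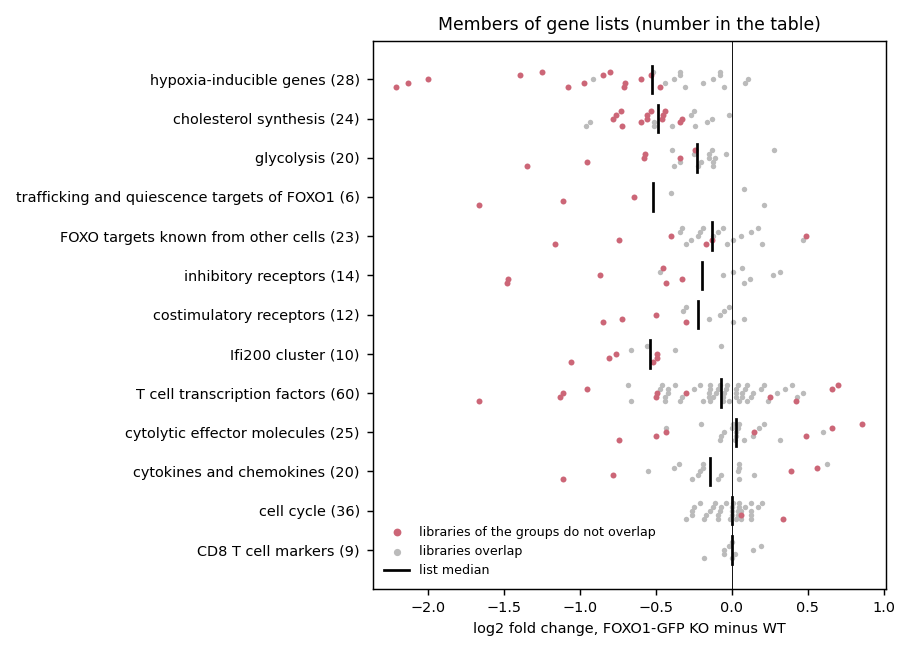
Log2 fold change of FOXO1-GFP KO against WT (horizontal) for the members of 13 gene lists (rows, with the number measured); red points are genes whose WT and KO libraries do not overlap, grey points overlap, and bars are list medians. The hypoxia-inducible, cholesterol synthesis and Ifi200 lists lie to the left with medians of -0.52, -0.48 and -0.54, and the cell cycle and CD8 lists are centred on 0.

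None of the 6 listed homing and quiescence genes that FOXO1 is known to drive in naive T cells was called. Of these 6, 3 (50%, against 6.79% of all genes) were separated below WT and 3 overlapped, and the log2 fold changes ranged from -1.66 to 0.21. Tcf7, a transcription factor of naive and memory T cells, was 4.71, 2.08 and 3.56 FPKM in WT and 1.13, 0.90 and 0.88 FPKM in KO CTL (log2 fold change -1.66 ± 0.30, adjusted p = 0.0626). Klf2, which controls T cell exit from lymphoid tissue, was 2.31, 3.48 and 2.57 against 1.76, 1.04 and 0.97 FPKM (-1.11, adjusted p = 0.58). Its target S1pr1, the receptor used for that exit, was separated at -0.64 (adjusted p = 0.978).

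Il7r, the receptor chain for IL-7, was 9.80, 5.49 and 5.0 FPKM in WT and 4.85, 6.85 and 3.47 FPKM in KO CTL, and the groups overlapped. The homing receptor Ccr7 overlapped too, at 17.34, 16.90 and 22.00 against 10.87, 25.73 and 27.16 FPKM. FOXO targets described in other cell types gave no call among 23 measured, while 5 (21.7%, against 6.79% of all genes) were separated below WT and 1 (4.35%, against 3.54%) above, with a median of -0.13. Trib1 (-1.16) and Gadd45a (-0.74) were lower in every KO library, the death ligand Fasl was higher in every KO library (0.49), and the cell cycle inhibitor Cdkn1b overlapped (0.20).

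Inhibitory receptors restrain T cells through ligands on other cells. Of 15 listed genes 14 were measured. Of the 14, 1 fell with the block (against 0.196% of all genes) and 2 were called lower without it (against 0.263%). Of the 14, 6 (42.9%, against 6.79% of all genes) were separated below WT. Slamf6, a homophilic receptor of the SLAM family, was 0.33, 0.22 and 0.21 FPKM in WT and 0.04, 0.03 and 0.01 FPKM in KO CTL. It fell with a log2 fold change of -1.47 ± 0.21 (SE; adjusted p = 0.0255), which the pseudocount of 0.1 FPKM keeps small at such levels, and the KO libraries held an estimated 10, 11 and 1 reads. The other 8 measured SLAM family genes and adaptors were not called.

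Ctla4, the receptor that competes with CD28 for its ligands, was 15.86, 15.15 and 9.05 FPKM in WT and 5.53, 3.76 and 4.60 FPKM in KO CTL. The log2 fold change was -1.48 ± 0.25 (SE), called without the block (adjusted p = 0.0193) and not with it (adjusted p = 0.116). Btla (-0.87), Lag3 (-0.45) and Tigit (-0.43) were separated below WT without a call. Pdcd1 (0.07, interval -0.43 to 0.56) and Havcr2 (0.08, interval -0.29 to 0.45) overlapped. Of the 12 costimulatory receptors 4 (33.3%, against 6.79% of all genes) were separated below WT and 0 called: Cd28 (-0.85), Icos (-0.72), Tnfrsf18 (-0.50) and Tnfrsf9 (-0.30).

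Of the 16 measured chemokine and trafficking receptors 1 fell (against 0.196% of all genes). Of the 16, 3 (18.8%, against 6.79% of all genes) were separated below WT and 0 above. Cxcr6, which guides effector cells to CXCL16 in tissue, was 78.14, 48.90 and 66.86 FPKM in WT and 19.59, 34.43 and 27.30 FPKM in KO CTL (log2 fold change -1.26 ± 0.24, adjusted p = 0.0352, and 0.0901 without the block). Cxcr3, the receptor for interferon-induced chemokines, was separated at -0.49 (adjusted p = 0.134). The integrin chain Itga7 was 1.45, 1.06 and 0.47 FPKM in WT and at most 0.07 FPKM in KO CTL, a log2 fold change of -2.79 that was called without the block (adjusted p = 0.00535) and not with it (adjusted p = 0.0661). The other 14 measured integrin genes were not called.

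Cytolytic mRNA, the most abundant effector products of these cells, were level or mixed: of 25 measured, 0 were called, and the median was 0.03. Of the 25, 4 (16%, against 3.54% of all genes) were separated above and 3 (12%, against 6.79%) below WT. Gzmb was 9173.00, 9684.59 and 9059.67 FPKM in WT and 10190.82, 9480.63 and 8588.48 FPKM in KO CTL, and Prf1, the pore protein of the granules, overlapped as well (0.03, interval -0.57 to 0.63). Gzmm (0.86) and Gzmd (0.66) were higher in every KO library, Gzmd being 1 of a cluster of near-identical granzyme genes whose reads can be shared. Gzmk (-0.43) and the granzyme inhibitor Serpinb6b (-0.74) were lower in every KO library.

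Cytokine mRNA were mixed, with 0 of 20 called. Of the 20, 2 (10%, against 3.54% of all genes) were separated above and 2 (10%, against 6.79%) below WT. Ltb, which encodes lymphotoxin beta, was 58.06, 59.72 and 71.90 FPKM in WT and 22.67, 27.48 and 39.69 FPKM in KO CTL (log2 fold change -1.11, adjusted p = 0.0661). Spp1 (osteopontin, 0.56) and Il24 (0.39) were higher in every KO library, and Ifng overlapped (0.15, interval -0.26 to 0.56). Of 60 transcription factors 0 were called, 7 (11.7%, against 6.79% of all genes) were separated below and 4 (6.67%, against 3.54%) above WT. Ahr (-1.13), Id3 (-0.95) and Stat4 (-0.49) were below WT in every KO library, Myb (0.70) and Ikzf3 (0.66) above, and Tbx21, which drives effector differentiation, overlapped (0.05, interval -0.40 to 0.50).

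Signalling genes held few calls. Of the PI3K, AKT and mTOR genes, 6 (15%, against 6.79% of all genes) were separated below WT and 0 above. Pik3r5, an adaptor of the PI3K that answers G protein-coupled receptors, was separated at -0.66 and was the only 1 of 40 measured PI3K, AKT and mTOR genes called without the block (adjusted p = 0.0383), and 0 were called with it (Pik3r5 adjusted p = 0.165). Of 27 T cell receptor signalling genes 0 were called, 4 (14.8%, against 6.79%) were separated below and 1 (3.7%, against 3.54%) above WT. Dgka, which removes the messenger diacylglycerol, was 29.41, 29.74 and 30.01 FPKM in WT and 12.80, 12.46 and 21.43 FPKM in KO CTL (-0.98, adjusted p = 0.0661). Among immediate early genes 0 of 26 were called and 5 (19.2%, against 6.79% of all genes) were separated below WT, Dusp2 (-0.78) and Egr3 (-0.93) among them.

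Tnfrsf22, Tnfrsf23 and Tnfrsf26 are neighbouring TNF receptor relatives on chromosome 7 that can share reads. Tnfrsf23 fell from 3.14, 2.16 and 1.62 FPKM to 0.33, 0.52 and 0.39 FPKM (log2 fold change -2.20 ± 0.27, adjusted p = 0.034). Tnfrsf26 fell from 11.20, 9.51 and 9.03 FPKM to 4.0, 4.30 and 4.93 FPKM (-1.15 ± 0.14, adjusted p = 0.0042). Tnfrsf22 was separated at -1.28 without a call (adjusted p = 0.218), so all 3 lay below WT in every KO library.

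Paired relatives also fell elsewhere. The class Ib MHC genes H2-Q6 and H2-Q7, near-identical copies on chromosome 17, fell from 272 ± 34.8 to 133 ± 12.9 FPKM and from 146 ± 16.1 to 70.4 ± 9.6 FPKM (SD, n = 3), each with an adjusted p of 0.0042, and H2-Q6 was named after its values were seen. The protease inhibitors Serpina3f and Serpina3g on chromosome 12 fell with log2 fold changes of -1.08 (adjusted p = 0.0352) and -1.24 (adjusted p = 0.00792). In both pairs the counting could split or share reads, so the copies are not separate observations.

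The remaining called mRNA were outside the lists and are named after their values were seen, apart from Plcxd1 (-2.03). Sdc4, the heparan sulfate proteoglycan syndecan-4, was 0.64, 0.69 and 0.38 FPKM in WT and at most 0.04 FPKM in KO CTL (log2 fold change -2.34 ± 0.23, adjusted p = 0.0255). Arrb1, which encodes beta-arrestin, fell from 11.69, 8.54 and 5.29 FPKM to 1.83, 2.11 and 1.49 FPKM (-2.11 ± 0.29, adjusted p = 0.035). Rgs11 (-1.87, adjusted p = 0.034, and 0.0629 without the block), a regulator of G protein signalling, the cytochrome Cyp2s1 (-1.40), Lypd6b (-1.38), Tmem71 (-1.20) and the sialyltransferase St3gal6 (-1.14) also fell. Gipr, the receptor of an incretin hormone, had the smallest p among lower genes of over 1 FPKM in 1 group in the 6-library fit (1.06, 1.80 and 1.12 against 0.29, 0.25 and 0.25 FPKM), but its adjusted p was 0.0898 there and 0.301 with the block.

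Ighm, the constant region of the IgM heavy chain, was 8.06, 10.33 and 7.61 FPKM in WT and 2.35, 2.44 and 3.71 FPKM in KO CTL and fell with a log2 fold change of -1.60 ± 0.22 (SE; adjusted p = 0.0133). It is a B cell marker. Of the 7 measured B cell markers 4 (57.1%, against 6.79% of all genes) were lower in every KO library and 3 overlapped. Their log2 fold changes ranged from -1.94 to 0.26. Beside Ighm, the lower ones were Igkc (-1.94; 0.30, 1.68 and 0.74 against 0.17, 0.00 and 0.29 FPKM), H2-Ab1 (-0.65) and Cd79b (-0.51). The summed level of the 7 measured B cell markers, Ighm included, was 19.6 to 23.7 FPKM in WT and 10.8 to 11.9 FPKM in KO libraries. Of the 16 listed, 9 were not analysed here, the defining markers Cd79a, Ms4a1 and Pax5 among them. Cd4 was 0.55, 0.57 and 0.44 FPKM in WT and 0.09, 0.44 and 0.21 FPKM in KO libraries. Of 7 measured myeloid markers 0 separated the groups, with sums of 61.2 to 88.1 FPKM in WT and 72 to 78.8 FPKM in KO libraries. The part of other cells in these results was not tested.

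**Figure D4:**
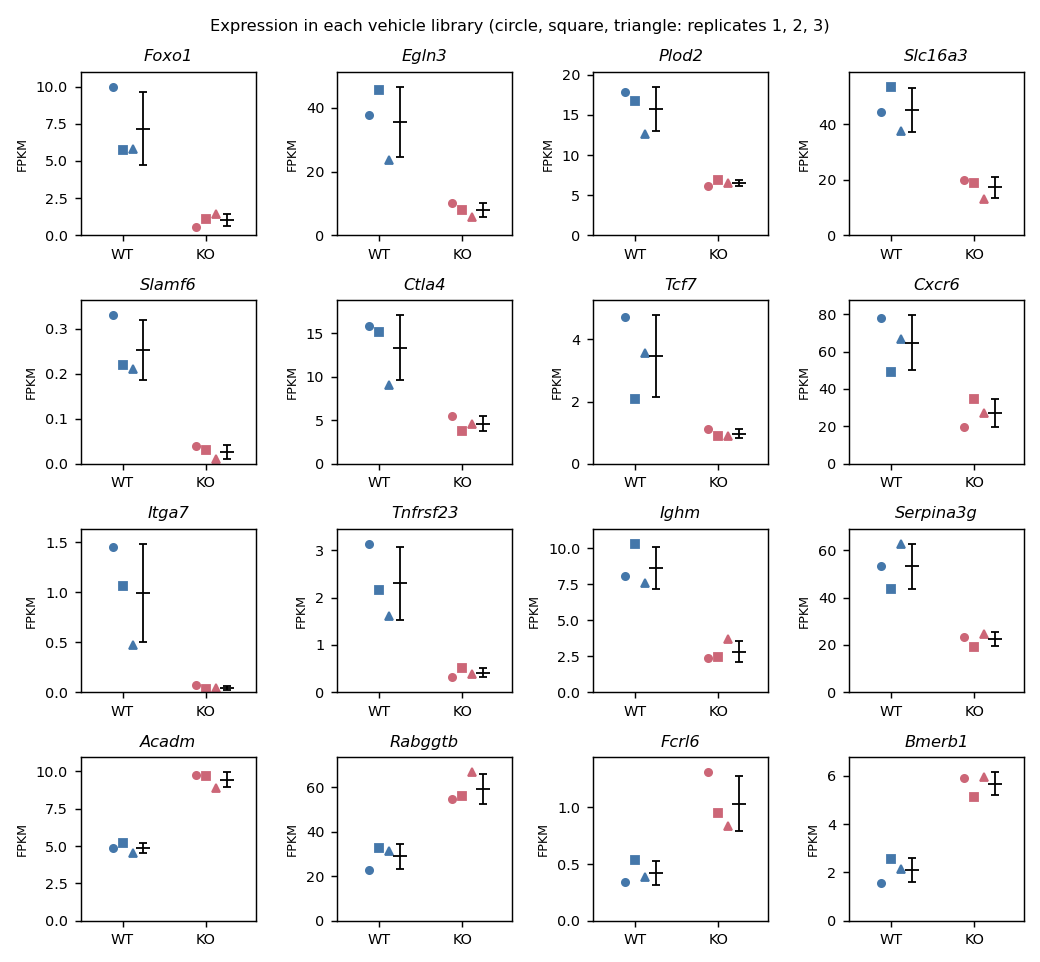
FPKM (vertical, from 0) of 16 genes in each WT (blue) and FOXO1-GFP KO (red) vehicle library; circles, squares and triangles are replicates 1, 2 and 3, and bars show the mean ± SD. In all 16 panels the WT and KO libraries do not overlap, with KO lower in the upper 12 and higher in Acadm, Rabggtb, Fcrl6 and Bmerb1.

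Higher mRNA were fewer, and 4 of the 5 that rose lay on chromosome 3, which also carries Foxo1. Chromosome 3 held 623 of the 13283 genes tested. Of these 623, 30 were separated above and 44 below WT, against 3.54% and 6.79% of all genes. Of the 10 named higher mRNA (not called in the 6-library fit, smallest p, separated, over 1 FPKM in 1 group), 5 were on chromosome 3, Acadm, Rabggtb, Tyw3 and Fpgt among them. Acadm, a dehydrogenase of mitochondrial fatty acid oxidation, was 4.90, 5.18 and 4.56 FPKM in WT and 9.77, 9.70 and 8.88 FPKM in KO CTL, and rose with a log2 fold change of 0.94 ± 0.12 (SE; adjusted p = 0.0042). Rabggtb, a subunit of the enzyme that attaches lipid to Rab proteins, rose by 1.04 on the log2 scale (adjusted p = 0.0125), with 28.9 ± 5.48 FPKM in WT and 59.1 ± 6.58 FPKM in KO CTL (SD, n = 3). Tyw3, a tRNA-modifying enzyme, was 0.88, 1.24 and 1.23 FPKM in WT and 2.31, 2.80 and 2.52 FPKM in KO CTL and rose by 1.13 on the log2 scale (adjusted p = 0.0251).

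These 3 genes lay in 1 stretch of chromosome 3 from 153907287 to 155093403 (GRCm38), about 101.64 Mb beyond the Foxo1 start, in which every measured gene was separated above WT. The stretch, delimited after its values were seen, held 6 measured genes, with Gm24494 (a small nucleolar RNA gene inside Rabggtb, 1.06), Cryz (which overlaps Tyw3, 1.06) and Fpgt (0.90, adjusted p = 0.0543) as the others. The log2 fold changes of the 6 with vehicle spanned 0.90 to 1.13 and had a median of 1.05, so all 6 were near a doubling. Because of the overlaps named above, the 6 are not all separate observations. Relative to the WT mean, the median of the 6 was 0.02, 0.05 and -0.02 (log2) in the WT vehicle libraries and 0.99, 1.04 and 0.81 in the KO vehicle libraries. In the PI3Kdi libraries it was -0.21, -0.08 and -0.19 for WT and 0.92, 0.94 and 0.77 for KO. The lowest gene of the 6 was at 0.70, 0.39 and -0.40 in those KO libraries. At least 1 gene therefore lay below the WT vehicle mean in KO replicate 3 with PI3Kdi.

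The flanks differed far less. The 10 measured genes in the 5 Mb before the stretch had a median log2 fold change of 0.03 and a range of -0.12 to 0.37, and the 9 in the 5 Mb after had a median of -0.01 and a range of -0.30 to 0.30. In the flanks, Dnajb4 (0.35), Pigk (0.22) and Ptger3 (0.30) were separated above WT and Depdc1a (-0.30) below, and none of the 19 genes was called in the 6-library fit or in the 12-library fits with or without the block. Whether DNA copy number or alleles of this stretch differed between the mice was not tested.

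Near Foxo1 itself, 52 genes were measured within 10 Mb to each side, 1 rose and 1, Foxo1, fell. Of these 52, 4 were separated above and 4 below WT, against 3.54% and 6.79% of all genes. The gene that rose was Gm38098 (chromosome 3, 52425408 to 52425648), a processed pseudogene just beyond the Foxo1 end, named after its values were seen. It was 0.00, 0.17 and 0.30 FPKM in WT and 9.77, 7.98 and 20.00 FPKM in KO CTL (adjusted p = 0.00916), an estimated 0, 2 and 2 reads against 53, 63 and 62. Maml3 (-0.90) and Mgarp (-1.45), which lie 0.58 and 0.88 Mb before the Foxo1 start, were lower in every KO library, and Mgarp is also induced by hypoxia. Rnf13 (-0.48) was also separated below WT, and Gpr171 (0.12) and P2ry13 (0.52) above.

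**Figure D5:**
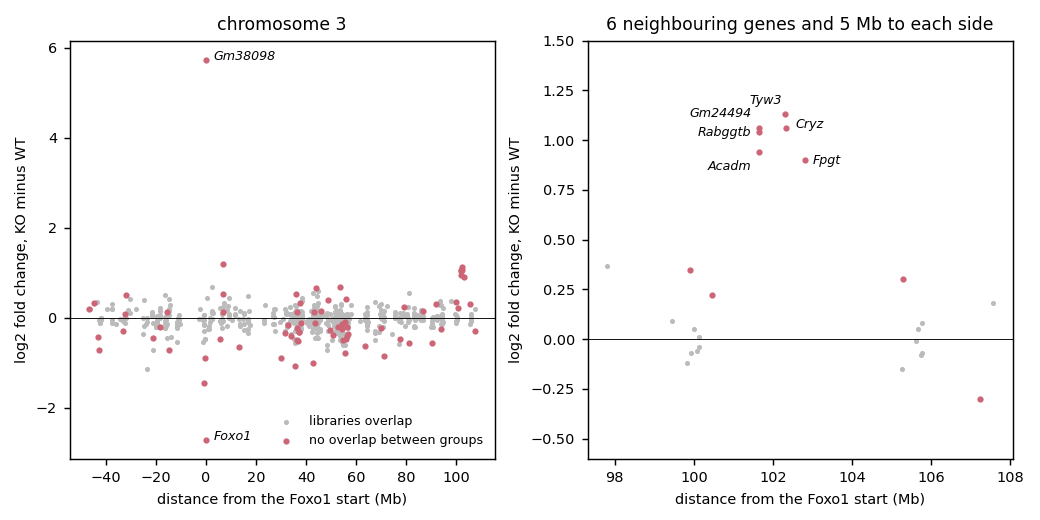
Log2 fold change of FOXO1-GFP KO against WT (vertical) by distance from the Foxo1 start in Mb (horizontal), for 623 genes of chromosome 3 (left) and for the 6 neighbouring higher genes with their flanks (right, other scale); red points are genes whose libraries do not overlap. The 6 genes lie between 0.90 and 1.13 while the flanking genes lie between -0.30 and 0.37.

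On chromosome 1, 65 genes were measured within 2 Mb of Slamf6. Of these 65, 10 were separated below and 1 above WT, against 6.79% and 3.54% of all genes. Of the 10 below, 6 belonged to the Ifi200 cluster, which encodes interferon-induced proteins that are near-copies of each other, and the others were Slamf6, Fcgr3 (-0.82), Pea15a (-0.30) and Cd48 (-0.21). Of 16 listed members of the cluster 10 were measured, and the median was -0.54. Of the 10, 6 (60%, against 6.79% of all genes) were separated below WT and 1 fell (against 0.196%). Ifi209 fell from 38.85, 31.23 and 26.84 FPKM to 18.48, 17.67 and 18.43 FPKM (-0.81 ± 0.15, adjusted p = 0.0407). Ifi204 (-1.06) and Ifi203 (-0.76) were separated without a call, and Aim2 overlapped (-0.07). Outside the cluster, interferon-stimulated genes had a median of -0.12, with 0 of 31 called. Of the 31, 2 (6.45%, against 6.79% of all genes) were separated below WT, Rtp4 (-0.86) among them. Only Usp18 (0.55) was separated above (3.23%, against 3.54%), so both shares were near those over all genes.

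The gene above WT in this window was Fcrl6, a receptor relative of the Fc receptors on cytotoxic cells, at 0.34, 0.54 and 0.39 FPKM in WT and 1.31, 0.95 and 0.84 FPKM in KO CTL (1.11, called without the block at an adjusted p of 0.0383, and 0.197 with it). Fcgrt, the neonatal Fc receptor, was 0.27, 0.33 and 0.39 against 1.27, 0.84 and 0.85 FPKM (1.32, adjusted p = 0.195). Bmerb1 had the largest log2 fold change of the 10 named higher mRNA, at 1.56, 2.57 and 2.16 against 5.93, 5.12 and 5.97 FPKM (1.42, adjusted p = 0.022 without the block and 0.0507 with it). Galnt10 (0.69), Itpk1 (0.73), Khdc1a (0.84) and Bambi (1.11) completed the named higher mRNA outside chromosome 3. The last called higher mRNA was Gm49980 (0.85), a long noncoding RNA.

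The same contrast in the 6 PI3Kdi libraries was fitted separately, and called 25 mRNA higher (0.188%) and 69 lower (0.519%). Its libraries carry the same replicate numbers as the vehicle libraries and deviated together with them within each genotype, so they are not taken as an independent replicate. All 31 mRNA called with vehicle had the same sign there and 27 were called. The log2 fold change was -2.71 with vehicle and -2.76 with PI3Kdi for Foxo1, -2.13 and -1.99 for Egln3, -1.25 and -1.12 for Plod2, -1.26 and -1.65 for Cxcr6, and 0.94 and 0.96 for Acadm. The medians of the hypoxia-inducible list were -0.52 and -0.43, of cholesterol synthesis -0.48 and -0.48, and of the FOXO1 targets -0.52 and -0.90.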

How the data were processed

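RNA was sequenced as stranded mRNA libraries from 300 ng of RNA per sample, on 1 lane. The authors aligned reads with STAR (2.7.1a) to GRCm38.p6, counted them per gene, filtered low genes, and deposited FPKM values from edgeR, rounded at deposit. Reads per library were recovered from the steps of low values at 12.86 to 48.02 M for the vehicle libraries (93.7% to 96.2% of held-out values came out whole). From the FPKM, limma (3.58.1, R 4.3.3) was fitted to log2(FPKM + 0.1) of the 3 WT and 3 KO vehicle libraries, with a mean-variance trend and Benjamini-Hochberg adjustment over 13283 genes. limma-voom on counts, the study's method, was run only on estimated reads. No low-value filter was applied.

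The 12-library fit with the replicate block treats vehicle and PI3Kdi libraries of 1 genotype and number as paired (consensus correlation 0.757). The labels do not state that pairing, and it rests on deviations from group means, which correlated at 0.592 to 0.837 in WT and 0.597 to 0.784 in KO pairs. Across genotypes the same numbers correlated at 0.281, -0.406 and 0.731. These 3 values disagree in sign and size, so they do not settle whether the numbers pair across genotypes. The labels do not say whether replicates are separate mice, so p-values measure only the spread between these libraries. On simulated data for the 6-library fit over 13283 genes, 52.5% of 200 changes of log2 size 1 and 91.5% of size 2 were recovered. There 1 and 12 unchanged genes were called. The changes were placed in genes of at least 1 FPKM, and each gene was drawn independently, without the spread that genes of 1 library share. These shares therefore do not give the recovery in the real libraries.

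The genes and lists were chosen with earlier results of these data known. Named were Foxo1 and members of 31 lists, and, since no gene was called in the 6-library fit, the 10 genes in each direction with the smallest p there among genes whose groups were separated, with a mean of at least 1 FPKM in 1 group and a fold over 1.5, predicted models excluded. Alternatives covered the 12-library fits, a replicate block across genotypes, pseudocounts of 0.5 and 1, a filter, scalings, robust estimation and leaving out each library. Some genes are not reported here.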

Additional observations from a re-analysis of the deposited data

Results flagged for a closer look

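For 3 of the genes named in the report, the difference between KO and WT CTL itself differed between vehicle and PI3Kdi, by the interaction term of the 12-library fit with the replicate block at an adjusted p under 0.05. The genotype effect on Slamf6 was -1.43 (log2) further down with PI3Kdi than with vehicle (adjusted p = 0.00813; -1.47 with vehicle and -2.90 with PI3Kdi). For Tbc1d4, a Rab GTPase-activating protein that AKT phosphorylates, the difference was -1.47 (adjusted p = 0.0272; -0.96 and -2.43), and with vehicle alone Tbc1d4 was below WT in every KO library without a call (adjusted p = 0.383). For the chemokine receptor gene Cxcr3 it was -0.58 (adjusted p = 0.0207; -0.49 and -1.06).

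The mean of Slamf6 was 0.253 FPKM in WT and 0.0267 FPKM in KO CTL with vehicle, and 1.05 and 0.0533 FPKM with PI3Kdi. For Tbc1d4 these means were 0.293 and 0.1 FPKM, and 1.07 and 0.107 FPKM. The KO levels of both genes lie at or near the pseudocount of 0.1 FPKM, so a higher WT level alone enlarges the log2 difference, and the size of their interactions depends on that scale.

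Over all 13283 genes 5 had such an interaction, 3 of them with a fold over 1.5. The others, named after their values were seen, were Cd38 (0.00 with vehicle and 1.26 with PI3Kdi) and Fkbp1a (-0.28 and -0.81). Without the block 0 did in limma (200 with an unadjusted p under 0.05), and the adjusted p was 1 for Slamf6, Tbc1d4 and Cxcr3. This test was added after the data were seen. Groups of 3 libraries were too small to test single libraries as outliers.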

How the results depend on the processing

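The number of called mRNA depended on which libraries set the spread. The 6-library fit called 0, the 12-library fit 44 (9 higher, 35 lower) and the 12-library fit with the replicate block 31 (5 higher, 26 lower). A replicate block on the number shared by both genotypes, a pairing that the correlations do not settle, called 24 (2 higher, 22 lower), of which 16 were among the 31. Among the 505 named genes the 3 fits called 25, 21 and 17, among the 490 list members 17, 14 and 12, and among the 117 genes of both chromosome windows 5, 4 and 2. Pseudocounts of 0.5 and 1, the 1 FPKM filter, median centring, quantile normalization, robust estimation and voom on estimated reads called 0, with 476 to 795 unadjusted p under 0.05. Leaving out 1 library called 0 to 8 mRNA (0 to 1 higher, 0 to 7 lower), 0 to 5 named genes, 0 to 4 list members and 0 to 1 in the windows; the calls came only without WT replicate 3, and 6 of those 8 were among the 31.

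Of 2302 log2 fold changes of 145 genes under the 16 alternatives, 2277 kept their sign, and no change of sign involved an unadjusted p under 0.05 in either fit. List medians moved by less than the spread between libraries in all 461 cases. Quantile normalization raised the higher mRNA among those with an unadjusted p under 0.05 from 207 of 786 to 287 of 739. Estimated depth limits genes such as Slamf6, with 1 to 11 reads in KO libraries.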
